A study of Mus musculus with 6 samples.

Results

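Genes for lysosomal proteases, other lysosomal hydrolases and lysosomal membrane proteins were followed in mouse cortex after stroke. They were chosen by total count: from 45 listed lysosomal genes, those with 60 or more counts summed over the 6 libraries were kept, which left 38 of the 24553 genes and unmatched rows of the table. The 38 comprised 9 cathepsins, 17 other hydrolases, 9 membrane proteins and 3 soluble lysosomal proteins that are not enzymes. Just inside the minimum were Ctsh with 71 counts and Cd63 with 78. Just outside it was Glb1 with 54 counts, and below it lay Cln3 with 33, Ctsa with 25, Psap with 16, and Ctss, Lipa and Lamp1 with 0. All 7 genes left out have 2 or more transcript rows in the table, whereas all 32 listed genes with 1 row passed. A 0 for a gene with several rows was therefore not read as absence of its RNA.

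The study compared short-chain fatty acids (SCFA), products of bacterial fermentation in the gut, with a salt-matched control given in drinking water. All mice were male C57BL/6J, and both groups carried the same antibiotic background of metronidazole, neomycin, ampicillin and vancomycin in 5% sucrose water. Treatment lasted 4 weeks and began at an age of 6 to 8 weeks. Cortex was taken at 15 weeks of age, 14 days after stroke, from 3 mice per group according to the series' design text. The labels do not say whether the tissue came from the injured or the opposite side. With 1 bulk RNA library per mouse, more cells of a type and more RNA per cell cannot be told apart.

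Lysosomes are acidic organelles in which proteases, glycosidases, lipases and sulfatases break down material delivered by endocytosis, phagocytosis and autophagy. Membrane proteins acidify the lumen, protect the membrane and export the products, and soluble helper proteins present lipids to the enzymes. In the brain all cell types contain lysosomes, and microglia, the resident phagocytes, are particularly rich in them. Many lysosomal genes carry near their start the palindrome CACGTG, to which the factors TFEB and TFE3 bind.

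Of the 6 libraries, 2 stood apart from the rest over all genes. On the first principal component, with 50% of the variance, control 2 scored 109.2 and the other 5 libraries -25.8 to -17.7. On the second, with 15.3%, SCFA 2 scored 51.6 and the next library 9.54. Library totals ran from 9275252 to 13862756 counts. A row with no gene symbol took 35.0% to 55.3% of them, most in control 2. After that row, 5092272 to 7776672 counts per library were left. Values below are in CPM, counts scaled to the usual common total, with the whole library (that row included) times its TMM factor as the total; on this scale 3 counts were 0.206 to 0.346 CPM. Where leaving out control 2 or SCFA 2 moved the log2 fold change of a member described here by over 1.5 times, the value without it stands beside it.

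As a group, lysosomal genes lay towards higher levels in SCFA cortex, but only 1 of the 38 passed the test. This was Laptm5, a lysosomal membrane protein of hematopoietic and microglial cells, which was 2.45-fold higher. All 38 passed the filter on low counts and entered a fit over 11969 genes (edgeR's quasi-likelihood test with Benjamini-Hochberg adjustment). At an adjusted p under 0.05, 1 member was called higher and 0 lower, beside 0.00835% of all tested genes called higher and 0.0752% called lower. At an unadjusted p under 0.05, 13 of 38 members were higher and 0 were lower, beside 2.97% and 2.79% of all tested genes. In 15 of 38 members every SCFA library lay above every control, and in 0 every SCFA library lay below, against 6.42% and 5.74% of all tested genes. The log2 fold change was above 0 in 32 of 38 members, against 50.9% of all tested genes. The median log2 fold change of the members was 0.37 (range -0.17 to 1.29), and that of all tested genes was 0.01. Because the list was drawn up with results of these libraries known, these counts describe it and are not independent evidence of its direction.

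**Figure D1:**
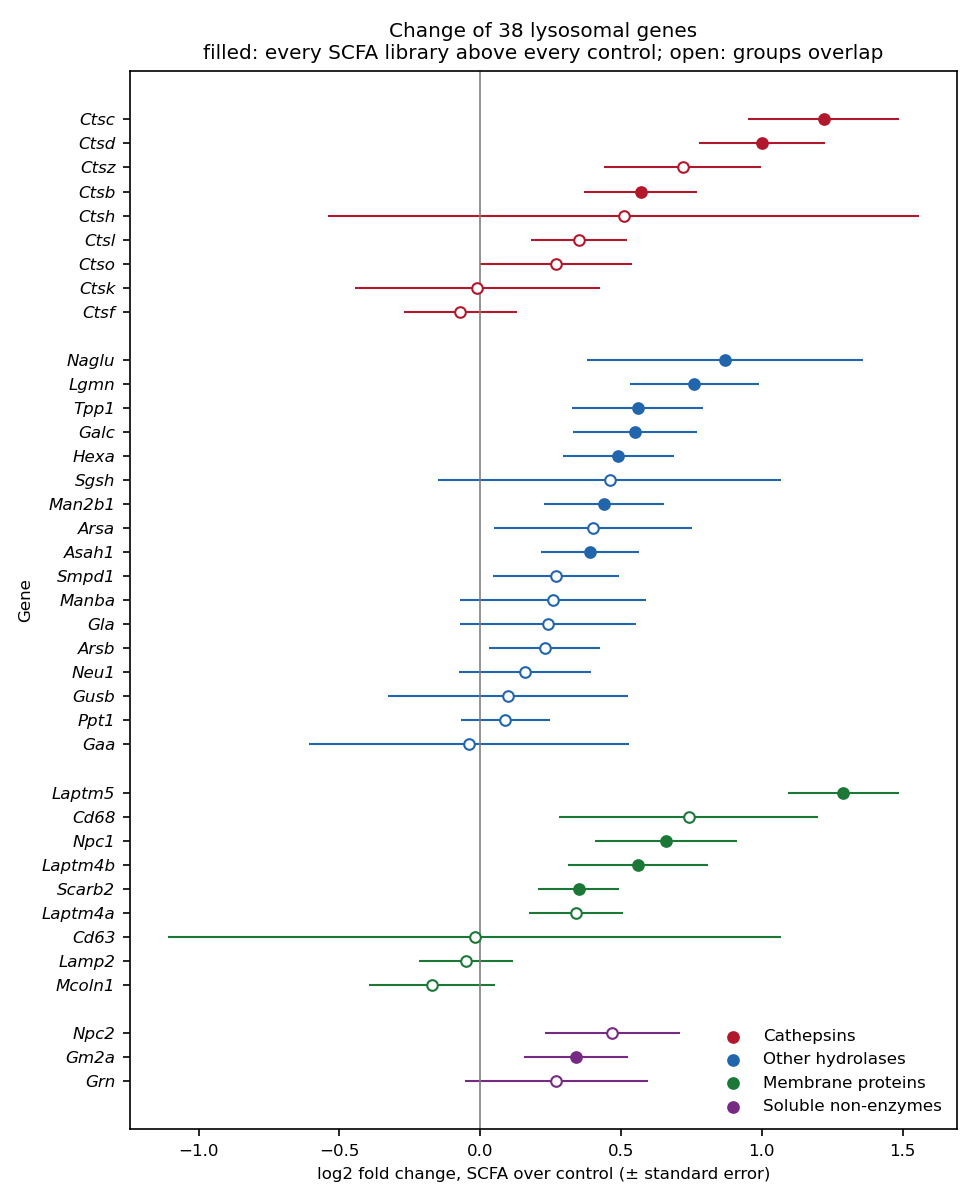
Log2 fold change of SCFA over control with its standard error (horizontal axis) for each of the 38 lysosomal genes (vertical axis), grouped and coloured by role, with filled points where every SCFA library lay above every control. The 15 filled points lie right of 0, and Laptm5 at 1.29 is farthest right.

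DESeq2 called 3 members higher, Laptm5, Ctsc and Ctsd, beside 0.109% of all genes it tested. Without SCFA 2, edgeR called 0 members and 0% of all genes higher. In that fit 5 members were higher at an unadjusted p under 0.05, against 1.32% of all genes, and the median log2 fold change was 0.31. Without control 2 it called 2 members, Laptm5 and Ctsd, against 0.0635% of all genes, and the median was 0.41.

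Promoters of the members were read to show where CACGTG stands in them. RefSeq windows from 250 bases before to 50 after a transcript start (assembly GRCm38.p6, the assembly of mm10) were at hand for 33 of the 38 members. The start need not be the outermost of the gene: for 4 members (Cd63, Ctsl, Laptm5 and Man2b1) it lay over 250 bases inside the gene as annotated, so that their window holds no base upstream of the gene. Windows were searched on both strands for CACGTG, for the longer TCACGTGA, which contains CACGTG, and for GAGGAAGT, an element of the kind bound by PU.1, a factor of microglia and other myeloid cells. CACGTG stood in the window of 10 of 33 members (30.3%), against 11.1% of tested protein-coding genes with a window. A gene with several windows counted when any of them held the element. Among the 10, the match of Ctsl was in a window wholly inside the gene. Lgmn matched only in a window whose start lay 636 bases inside the gene, and its window at the annotated gene start held no match. TCACGTGA was in 3 members (9.09%), Ctsd, Gla and Mcoln1, against 1.91%, and GAGGAAGT was in 3 (9.09%), Ctsc, Gla and Gusb, against 3.16%. By role, CACGTG was in 3 of 7 cathepsins, 6 of 16 other hydrolases, 1 of 7 membrane proteins and 0 of 3 soluble non-enzymes. Printed here are the windows of the 3 members with the smallest p, Laptm5, Ctsc and Ctsd, and of Mcoln1, the member with the lowest fold change. Capitals mark a match to any of the 3 elements on either strand.
Ctsd, chr7:142387778-142388077, minus strand: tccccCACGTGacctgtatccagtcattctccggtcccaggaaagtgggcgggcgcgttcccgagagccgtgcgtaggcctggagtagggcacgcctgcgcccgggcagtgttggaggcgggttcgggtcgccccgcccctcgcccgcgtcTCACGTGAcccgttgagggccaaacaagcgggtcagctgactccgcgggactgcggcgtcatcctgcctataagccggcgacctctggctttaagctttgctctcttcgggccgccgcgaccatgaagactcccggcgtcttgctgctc
Mcoln1, chr8:3500269-3500568, plus strand: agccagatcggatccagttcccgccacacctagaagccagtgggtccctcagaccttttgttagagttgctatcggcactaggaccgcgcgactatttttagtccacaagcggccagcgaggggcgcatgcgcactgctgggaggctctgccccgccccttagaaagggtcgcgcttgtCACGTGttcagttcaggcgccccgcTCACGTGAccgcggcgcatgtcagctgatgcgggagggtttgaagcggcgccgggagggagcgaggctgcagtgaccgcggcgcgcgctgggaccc
Ctsc, chr7:88277835-88278134, plus strand: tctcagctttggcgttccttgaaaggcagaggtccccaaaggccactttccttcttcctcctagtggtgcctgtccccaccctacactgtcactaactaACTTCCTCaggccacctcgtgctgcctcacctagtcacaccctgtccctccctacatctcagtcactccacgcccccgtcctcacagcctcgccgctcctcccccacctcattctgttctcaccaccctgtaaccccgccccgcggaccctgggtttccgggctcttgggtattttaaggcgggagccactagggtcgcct
Laptm5, chr4:130913066-130913365, plus strand: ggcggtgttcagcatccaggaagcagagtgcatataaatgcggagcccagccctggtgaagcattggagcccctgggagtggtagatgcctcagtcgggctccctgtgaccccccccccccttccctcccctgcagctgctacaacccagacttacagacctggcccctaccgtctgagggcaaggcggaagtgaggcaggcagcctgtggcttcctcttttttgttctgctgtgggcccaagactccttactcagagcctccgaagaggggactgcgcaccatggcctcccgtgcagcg
In Ctsd the first bases of CACGTG stand 245 and 98 bases upstream of the window's start site, and in Mcoln1 71 and 45 bases upstream. The start site of the Laptm5 window lies 426 bases inside the annotated gene, and this internal window held none of the 3 elements; the outermost Laptm5 start was not searched. The window of Ctsc, whose start site lies 61 bases inside the gene, held GAGGAAGT on the minus strand. The 10 members with CACGTG had a median log2 fold change of 0.38 (-0.17 to 1.0), and 3 of them did not overlap between groups. The 23 without it had a median of 0.34 (-0.05 to 1.29), and 8 did not overlap. Among all tested genes 6.42% did not overlap upwards. A match in a window is a description of its letters.

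Cathepsins are the proteases of the lysosome. Of the 9 measured, 7 had a log2 fold change above 0, 3 did not overlap between groups (Ctsb, Ctsc and Ctsd), 4 had an unadjusted p under 0.05 and 0 were called. The shares over all tested genes were 6.42% for non-overlap upwards and 2.97% for higher at an unadjusted p under 0.05. The median log2 fold change of the 9 cathepsins was 0.51 (-0.07 to 1.22). This is the value of Ctsh, which had 71 counts in all and a standard error of 1.05. Ctsd encodes cathepsin D, the main aspartic protease of the lysosome, and lies on chromosome 7 from 142375910 to 142387827. It measured 161.2, 256.7 and 166.3 CPM in controls 1, 2 and 3 and 302.6, 527.6 and 339.7 in SCFA 1, 2 and 3. Every SCFA library was above every control, with SCFA 2 the highest and control 2 the highest of its group. Means of 194.7 ± 53.7 and 390.0 ± 120.6 CPM (SD, n = 3 each) corresponded to a log2 fold change of 1.0, with a standard error of 0.223 and an adjusted p of 0.352 by edgeR's quasi-likelihood test. Without SCFA 2 the log2 fold change was 0.73, and without control 2 it was 1.25 with an adjusted p of 0.0181. DESeq2 gave an adjusted p of 0.00321, and with both libraries left out edgeR gave 0.97 and an adjusted p of 0.00231.

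Ctsc encodes dipeptidyl peptidase 1, which activates granule serine proteases of immune cells, and lies on chromosome 7 from 88278024 to 88315861. Its levels were 9.07, 8.41 and 9.41 CPM in the controls and 22.0, 23.4 and 17.2 in the SCFA libraries. The control values were close together and all SCFA values stood clear of them. Its log2 fold change was 1.22 (SE 0.269, adjusted p = 0.352), from 8.96 ± 0.506 to 20.9 ± 3.25 CPM (SD, n = 3 each). Leaving out 1 library at a time gave 1.13 to 1.34, and DESeq2 gave an adjusted p of 0.0332. Ctsc is counted over 2 transcript rows. With only its highest row the log2 fold change was 1.32, with a standard error of 0.38 and an adjusted p of 0.769 (edgeR's quasi-likelihood test).

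Ctsb, a cysteine protease and one of the abundant cathepsins, measured 212.1, 277.8 and 227.6 CPM in controls and 281.9, 487.7 and 291.6 with SCFA. The groups did not overlap, but SCFA 1 lay only just above control 2. Its log2 fold change was 0.57 (SE 0.201, adjusted p = 0.864), and 0.27 without SCFA 2. Ctsz, a carboxypeptidase, measured 21.0, 34.2 and 17.2 CPM in controls against 34.4, 52.2 and 32.3 with SCFA, so that SCFA 3 lay below control 2 (log2 fold change 0.72, SE 0.279, adjusted p = 0.864, and 0.47 without SCFA 2). Ctsf had the lowest fold change of the class: 32.7, 31.0 and 28.9 CPM in controls and 32.7, 29.8 and 25.6 with SCFA (log2 fold change -0.07, SE 0.201). Ctsl, Ctso, Ctsh and Ctsk had log2 fold changes of 0.35, 0.27, 0.51 and -0.01, and overlapped between groups. The standard error of Ctsh was 1.05 at 71 counts in all, and its log2 fold change was 1.8 without control 2 and 0.34 without SCFA 2. Ctso had 0.11 without control 2 and 0.50 without SCFA 2, and Ctsk -0.23 and -0.09.

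**Figure D2:**
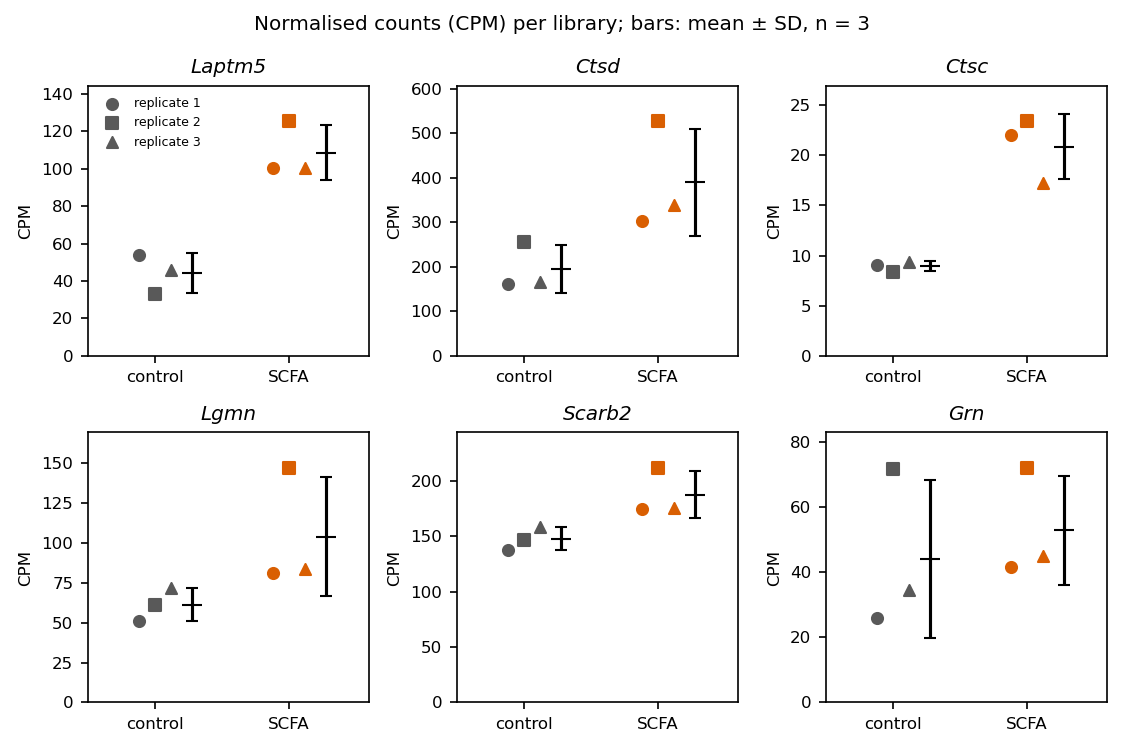
CPM per library (vertical axis, from 0) for Laptm5, Ctsd, Ctsc, Lgmn, Scarb2 and Grn in the control and SCFA groups (horizontal axis); points are single libraries, 1 marker shape per replicate number, and the bars show the mean and SD of 3 libraries. The groups do not overlap except in Grn, where control 2 at 71.9 CPM reaches the highest SCFA value of 72.2.

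Other hydrolases cut sugars, lipids and peptides. Of the 17 measured, 16 had a log2 fold change above 0, 7 did not overlap between groups (Hexa, Galc, Lgmn, Tpp1, Man2b1, Naglu and Asah1), 5 had an unadjusted p under 0.05 and 0 were called. The median log2 fold change was 0.39 (-0.04 to 0.87). All tested genes had shares of 6.42% for non-overlap upwards and 2.97% for higher at an unadjusted p under 0.05. Lgmn, the asparaginyl endopeptidase that processes cathepsins, lies on chromosome 12 from 102394082 to 102439728. It measured 51.3, 60.9 and 72.0 CPM in controls and 80.9, 147.2 and 83.9 with SCFA. Every SCFA library lay above every control, with SCFA 2 far above the other 2 of its group. The log2 fold change was 0.76 (SE 0.229, adjusted p = 0.864), and 0.43 without SCFA 2. Galc, which degrades the myelin lipid galactosylceramide, measured 19.3, 23.6 and 17.5 CPM in controls and 28.1, 30.3 and 30.0 with SCFA (log2 fold change 0.55, SE 0.219). Its SCFA values lay close together and clear of all controls.

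Hexa, the alpha subunit of the hexosaminidase that degrades GM2 ganglioside, measured 37.2, 30.4 and 35.2 CPM in controls against 39.8, 56.7 and 47.9 with SCFA (log2 fold change 0.49, SE 0.197, adjusted p = 0.864). Tpp1, a tripeptidyl peptidase, had levels of 32.8, 27.1 and 21.4 CPM in controls and 35.7, 50.3 and 33.6 with SCFA (log2 fold change 0.56, SE 0.233, and 0.36 without SCFA 2). In Tpp1 the lowest SCFA library lay only just above the highest control. Gaa, which degrades glycogen, had the lowest fold change of the class, with 4.61, 2.19 and 3.50 CPM in controls and 2.72, 3.78 and 3.57 with SCFA (log2 fold change -0.04, SE 0.567). Without control 2 Gaa had -0.27, and without SCFA 2 -0.12. Naglu, an enzyme of heparan sulfate breakdown, had the largest log2 fold change of the class, 0.87, at low levels: 4.61, 1.84 and 3.80 CPM in controls against 7.10, 6.12 and 5.66 with SCFA (SE 0.49, and 0.57 without control 2). Asah1, acid ceramidase, measured 68.2, 48.9 and 70.2 CPM in controls and 78.4, 87.1 and 80.8 with SCFA (log2 fold change 0.39, SE 0.174, and 0.25 without control 2). In Naglu and Asah1 control 2 was the lowest of all 6 libraries. Gusb, the beta-glucuronidase, rested on SCFA 2: that library measured 18 CPM against 6.79 and 5.88 in the other SCFA mice and 8.09, 11.2 and 9.51 in controls. Its log2 fold change was 0.10, but -0.59 without SCFA 2 and 0.23 without control 2. The log2 fold changes of the other members of the class were 0.46 for Sgsh, 0.44 for Man2b1, 0.40 for Arsa, 0.27 for Smpd1, 0.26 for Manba, 0.24 for Gla, 0.23 for Arsb, 0.16 for Neu1 and 0.09 for Ppt1. Without control 2 these were 0.23 for Sgsh, 0.12 for Arsa, 0.16 for Smpd1, 0.57 for Manba, 0.09 for Gla, 0.41 for Arsb and 0.29 for Neu1. Without SCFA 2 they were 0.09 for Smpd1, 0.05 for Arsb and -0.01 for Ppt1.

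Among the membrane proteins, 6 of 9 had a log2 fold change above 0, 4 did not overlap between groups (Laptm4b, Laptm5, Npc1 and Scarb2), 4 had an unadjusted p under 0.05 and 1 was called. The median log2 fold change was 0.35 (-0.17 to 1.29). Over all tested genes 6.42% did not overlap upwards, 2.97% were higher at an unadjusted p under 0.05 and 0.00835% were called higher. Laptm5 lies on chromosome 4 from 130912890 to 130936148. It measured 53.7, 32.8 and 46.0 CPM in controls and 100.1, 125.3 and 100.3 with SCFA. All SCFA libraries stood clear of all controls. From 44.2 ± 10.6 CPM in controls it rose to 108.6 ± 14.5 with SCFA (SD, n = 3 each). On the log2 scale the change was 1.29 with a standard error of 0.196 and an adjusted p of 0.0264 (edgeR's quasi-likelihood test). Leaving out control 2 gave an adjusted p of 0.0147. Leaving out any of the other 5 libraries ended the call: the adjusted p was 0.0906 without control 1, 0.11 without control 3, 0.108 without SCFA 1, 0.215 without SCFA 2 and 0.161 without SCFA 3. The log2 fold change in these fits stayed between 1.12 and 1.46. Limma-voom gave an adjusted p of 0.0613 and total-count scaling 0.0902, which also ended the call.

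Scarb2, the receptor that carries glucocerebrosidase to the lysosome, measured 137.7, 146.4 and 158.5 CPM in controls and 174.9, 211.7 and 175.7 with SCFA (log2 fold change 0.35, SE 0.143, adjusted p = 0.864). Npc1, which exports cholesterol, had 32.7, 29.2 and 37.5 CPM in controls and 42.9, 76.1 and 38 with SCFA, and its log2 fold change of 0.66 (SE 0.252) became 0.29 without SCFA 2. Laptm4b measured 16.3, 12.2 and 17.9 CPM in controls and 21.3, 25.2 and 22.1 with SCFA (log2 fold change 0.56, SE 0.248). These 3 did not overlap between groups, and in Npc1 SCFA 3 lay only just above control 3. Mcoln1, a cation channel of the lysosomal membrane, had the lowest fold change of all 38 members, with 29.6, 28.7 and 37.8 CPM in controls against 22.0, 30.7 and 32.7 with SCFA (log2 fold change -0.17, SE 0.224). Lamp2, a structural membrane glycoprotein, measured 48.0, 49.6 and 55.6 CPM in controls and 49.3, 46.4 and 51.7 with SCFA (log2 fold change -0.05, SE 0.168, and -0.01 without SCFA 2). Cd68, a glycoprotein of phagocyte lysosomes, measured 4.61, 9.80 and 3.40 CPM in controls and 6.48, 13.8 and 9.23 with SCFA, with control 2 above 2 of the SCFA libraries (log2 fold change 0.74, SE 0.459). Without control 2 Cd68 had 1.29, and without SCFA 2 it had 0.42. Laptm4a measured 114.9, 106.0 and 129.5 CPM in controls and 157.5, 116.3 and 169.0 with SCFA, with SCFA 2 inside the control range (log2 fold change 0.34, SE 0.167). Cd63, at 78 counts, had a log2 fold change of -0.02 with a standard error of 1.09, and 1.13 without control 2 and -0.10 without SCFA 2.

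The 3 soluble proteins that are not enzymes were all above 0, 1 did not overlap and 0 were called. Their median log2 fold change was 0.34 (0.27 to 0.47). Non-overlap upwards was seen in 6.42% of all tested genes. Gm2a, the activator that presents GM2 ganglioside to hexosaminidase, measured 50.7, 40.2 and 52.8 CPM in controls and 57.0, 71.2 and 54.3 with SCFA, with no overlap (log2 fold change 0.34, SE 0.185, and 0.22 without SCFA 2). Npc2, the soluble partner of Npc1, measured 27.2, 43.8 and 29.3 CPM in controls and 35.7, 58.3 and 44.4 with SCFA (log2 fold change 0.47, SE 0.24), and had 0.71 without control 2 and 0.27 without SCFA 2. Grn, the precursor of the granulins, measured 26.1, 71.9 and 34.5 CPM in controls and 41.7, 72.2 and 45 with SCFA (log2 fold change 0.27, SE 0.325). In Grn, control 2 was 2.37 times the mean of the other controls, and the log2 fold change was 0.81 without control 2 and -0.02 without SCFA 2.

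Across the 38 members, SCFA 2 was the highest of the 6 libraries for 22 and control 2 the lowest for 16. Control 2 was not low throughout: within the controls it was the highest for 14 members and the lowest for 19. Against the mean of the other controls it reached 5.71 times for Ctsh and 4.69 times for Cd63, both with few counts. It was 2.44 times that mean for Cd68, 1.79 times for Ctsz and 1.57 times for Ctsd, but 0.658 times for Laptm5 and 0.438 times for Naglu. SCFA 2 reached 2.84 times the mean of the other SCFA libraries for Gusb, 1.88 times for Npc1 and 1.64 times for Ctsd, but 0.569 times for Ctso. With control 2 and SCFA 2 both left out, 37 members were tested, 29 had a log2 fold change above 0, 25 did not overlap upwards, 1 did not overlap downwards (Gusb) and 2 were called higher (Laptm5 and Ctsd). With only 2 libraries a group non-overlap is easier to reach: over all genes 17% did not overlap upwards and 17.4% downwards, 49.9% were above 0 and 0.115% were called higher. The medians were then 0.45 for cathepsins, 0.23 for other hydrolases, 0.34 for membrane proteins and 0.51 for the soluble non-enzymes.

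**Figure D3:**
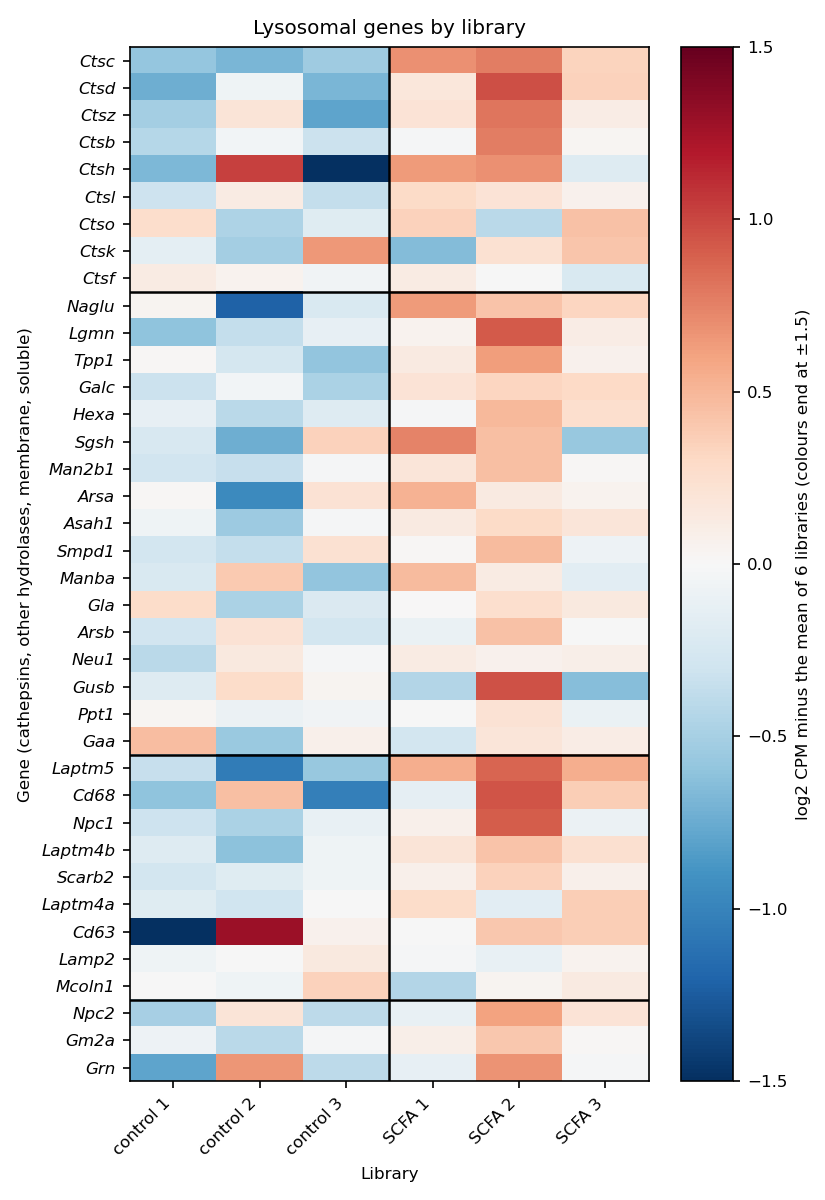
Colour shows log2 CPM of each of the 38 genes (vertical axis, grouped by role) in each of the 6 libraries (horizontal axis) as the difference from the gene's mean over the libraries; colours end at ±1.5, which 1 value passes. SCFA 2 is the reddest column, being highest for 22 of 38 genes, and control 2 is mixed.

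Levels could be compared between genes per kilobase of transcript for members with 1 row. By mean CPM per kilobase over the 6 libraries, Ctsd stood first at 137.4, followed by Laptm4a at 74.6, Ctsb at 62.5, Ctsl at 43.2, Lgmn at 41.5 and Scarb2 at 35.6. Naglu at 1.90 and Sgsh at 0.786 were the lowest of those measured this way. Within the controls Ctsd stood at 91.6 ± 25.2 CPM per kilobase and Laptm4a at 65.9 ± 6.69 (SD, n = 3 each), and Ctsb at 50.4 ± 7.23 came next. With SCFA they stood at 183.3 ± 56.7, 83.3 ± 15.6 and 74.6 ± 24.5. The ranges of mean ± SD overlap between Ctsd and Laptm4a in the controls and between Laptm4a and Ctsb in the SCFA group. Even so, Ctsd was above Laptm4a per kilobase in every control library. In SCFA 2 Ctsb was above Laptm4a, so the order of these genes was not the same in every SCFA library.

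The remaining lysosomal pathway was read from lists of genes that are not members. No gene of these lists passed the adjusted threshold in edgeR or DESeq2. At an unadjusted p under 0.05, 2.97% of all tested genes were higher and 2.79% were lower. In the lists, 2 proton pump genes, 4 other hydrolases and 2 transporters were higher at that p and 1 sorting gene was lower. Among these, Atp6v0d2 had 0, 13 and 2 counts in controls 1, 2 and 3, and Slc11a1 had 10, 0 and 18. Neither gene would have passed the low-count filter on the controls alone. Both entered through SCFA libraries, where they are high, and were not taken as support. Non-overlap upwards was found in 6.42% of all tested genes, and downwards in 5.74%. Of 14 other hydrolases tested, 10 had a log2 fold change above 0, 4 did not overlap upwards and 4 were higher at an unadjusted p under 0.05 (median 0.33). The lower genes of this list with the smallest p were Pld3 and Pld4, with log2 fold changes of -0.86 (SE 0.96) and -0.15 (SE 0.441). Pld3 had 75 counts in all over 2 transcript rows. Subunits of the proton pump that acidifies lysosomes were centred near 0: of 17 tested, 8 were above 0, 1 did not overlap upwards, 1 downwards, and the median was -0.06. In that list Atp6v0d2, a subunit form of phagocytes, rested on few counts, with 0, 1.5 and 0.20 CPM in controls and 1.67, 8.04 and 3.20 with SCFA, whereas Atp6v1a, of the catalytic head, measured 276.2, 286.9 and 278.8 CPM in controls and 255.8, 271.4 and 238.7 with SCFA (log2 fold change -0.14, SE 0.128). Atp6v0e2 and Atp6v0e, of the membrane part of the pump, had log2 fold changes of 0.41 and -0.65.

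Transporters and other membrane proteins outside the members had 8 of 14 above 0 and a median of 0.10. Slc11a1, a metal transporter of phagocyte lysosomes, measured 0.809, 0 and 1.8 CPM in controls and 3.66, 5.78 and 4.54 with SCFA (log2 fold change 2.39, SE 0.913), and the nucleoside transporter Slc29a3 had 0.83 (SE 0.287). On the lower side Tmem106b had a log2 fold change of -0.23 (SE 0.136) and Ostm1 of -0.34. Sorting genes, which deliver enzymes to lysosomes, had 10 of 14 above 0 and a median of 0.13, while Vps35, of the retromer that recycles sorting receptors, measured 342.8, 364.2 and 314.1 CPM in controls against 313.0, 189.8 and 282.9 with SCFA (log2 fold change -0.38, SE 0.174). Gnptab had a log2 fold change of 0.25, Cln8 of 0.38 and Gnptg of -0.15. Regulators of lysosomal genes and of signalling at the lysosome had 6 of 12 above 0 and a median of -0.01. Among these Tfeb, the factor that binds CACGTG, had 80 counts in all over 3 transcript rows, at 1.38, 3.00 and 0.801 CPM in controls and 0, 0.963 and 1.12 with SCFA, and Tfe3 had 0 counts over 6 rows. Neither was read as the level of its RNA. The same holds for members with several rows (Ctsc, Ctsh, Gaa, Lamp2, Cd63 and Cd68), whose CPM compare libraries only. Rragc and Rraga, GTPases of nutrient signalling, had log2 fold changes of 0.34 and -0.19, and Bhlhe40 had 0.17. Cystatins, the inhibitors of cathepsins, had 3 of 4 above 0 and a median of 0.12, and Cst3, the secreted cystatin C, measured 644.5, 791.9 and 671.6 CPM in controls and 780.1, 761.7 and 1158 with SCFA (log2 fold change 0.36, SE 0.169). Cstb had 0.14 and Cst6 -0.51.

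Markers of cell types were read beside the members. For comparison, 6.42% of all tested genes did not overlap upwards and 2.97% were higher at an unadjusted p under 0.05. Called higher were 0.00835% by edgeR and 0.109% by DESeq2. Of 17 microglial markers tested of 20 listed, 16 had a log2 fold change above 0, 8 did not overlap upwards, 10 were higher at an unadjusted p under 0.05 and 0 were called by edgeR but 3 by DESeq2, with a median log2 fold change of 0.64. Their summed level was 375.4, 475.4 and 399.0 CPM in controls and 583.0, 849.3 and 602.0 with SCFA, and Siglech and Itgam, both with several rows, were at 0. The markers with the most counts were C1qa, with 41.2, 71.7 and 47.8 CPM in controls and 91.8, 157.2 and 83.4 with SCFA, and Csf1r, with 55.4, 68.1 and 54.2 against 61.8, 124.6 and 66.4. The summed level of the members was 1551, 1762 and 1644 CPM in controls and 2088, 2833 and 2139 with SCFA. Relative to the summed microglial markers it was 4.13, 3.71 and 4.12 in controls and 3.58, 3.34 and 3.55 with SCFA. Members and microglial markers were thus both higher with SCFA, and the ratio between them was lower in every SCFA library than in every control. Relative to the summed astrocyte markers, members stood at 1.87, 1.79 and 1.72 in controls and 1.82, 1.72 and 1.62 with SCFA, which overlapped. Relative to the summed neuron markers they stood at 0.449, 0.484 and 0.415 in controls. With SCFA this ratio was 0.537, 0.672 and 0.516, above every control. The part of microglial RNA in the lysosomal result was not tested.

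Of 9 astrocyte markers tested of 12 listed, 8 were above 0, 4 did not overlap upwards, 4 were higher at an unadjusted p under 0.05 and 0 were called by edgeR but 2 by DESeq2, with a median of 0.50, summed levels of 827.6 to 984.9 CPM in controls and 1147 to 1648 with SCFA, and Slc4a4 at 0. Slc1a3 and Slc1a2, glutamate transporters, had log2 fold changes of 0.80 and 0.55. Among all tested genes 6.42% did not overlap upwards and 2.97% were higher at an unadjusted p under 0.05. DESeq2 called 0.109% of all genes it tested higher. Of 6 monocyte and macrophage markers tested of 10 listed, 4 were above 0 and 1 did not overlap upwards, with a median of 0.42 and Cd163 and Ms4a7 at 0, and Lyz2 and Mrc1 had log2 fold changes of 0.90 and -0.06. The marker without overlap was Ly6c2, with 30, 0 and 15 counts in controls and 30, 36 and 33 with SCFA. It would not have passed the low-count filter on the controls alone and was not taken as support. Neuron markers had 7 of 11 above 0, a median of 0.15 and summed levels of 3457 to 3961 CPM in controls and 3888 to 4217 with SCFA, and Camk2a and Slc17a7 had log2 fold changes of 0.15 and 0.30. Oligodendrocyte markers had 5 of 8 above 0 and a median of 0.14, and Ermn and Cldn11 had -0.05 and 0.07. Endothelial markers had 5 of 6 above 0, 3 not overlapping upwards, 3 higher at an unadjusted p under 0.05 and a median of 0.43. Pecam1 and Tek were at 0, and Slc2a1 and Slco1a4 had 0.71 and 0.47. Striatal neuron markers were high in SCFA 2, at 401.1 CPM summed against 71.8 and 83.3 in the other SCFA libraries and 72.8 to 134.8 in controls. Penk, which encodes the enkephalin precursor, stood at 130.3 CPM in SCFA 2 and at 23.8 in SCFA 3. Exocrine pancreas markers were present in controls, at 40.6 to 385.1 CPM summed, and at 0.894 to 2.61 CPM with SCFA. All 12 tested were below 0 and 8 were called lower, against 0.0752% of all tested genes. These 12 passed the low-count filter through the controls, where they are high, so their direction and calls support nothing. The mean in controls was 103.2 CPM for Amy2a5 and 19.7 for Pnlip (SDs 94.2 and 15.5). The part of each of these in the lysosomal result was not tested.

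**Figure D4:**
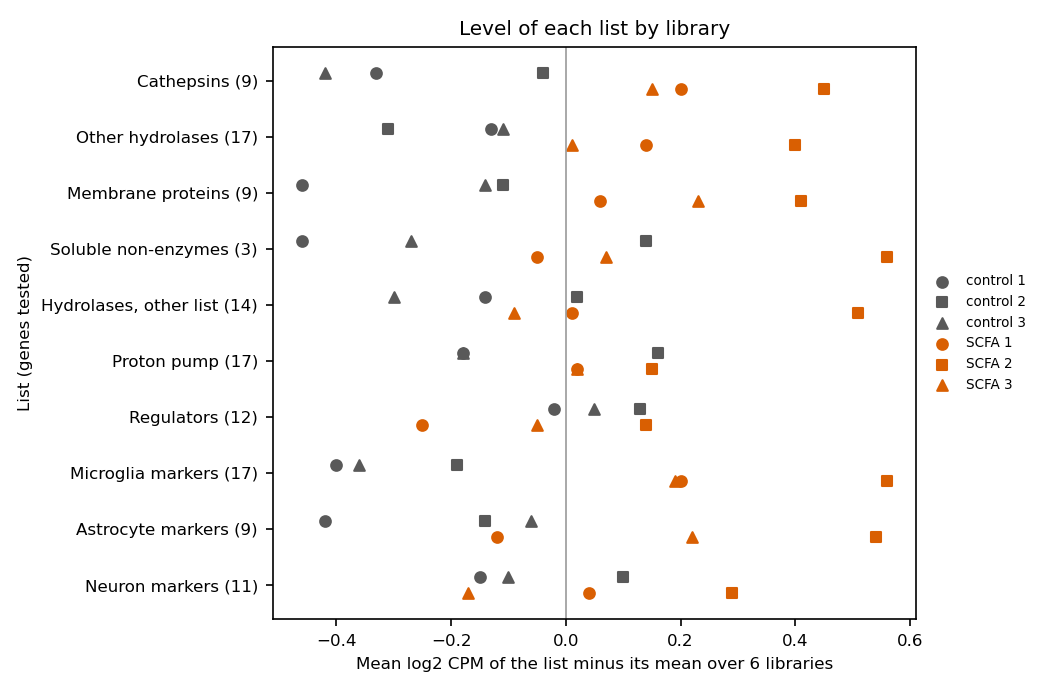
Mean log2 CPM of each gene list minus its mean over the 6 libraries (horizontal axis) for the 4 member classes, other lysosomal lists and marker lists (vertical axis, with the genes tested); grey points are controls, orange points SCFA libraries, with 1 marker shape per replicate number. Cathepsins run from -0.42 to -0.04 in controls and from 0.15 to 0.45 with SCFA, microglial markers from -0.40 to -0.19 and from 0.19 to 0.56, and the proton pump overlaps between groups.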

How the data were processed

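Total RNA from snap-frozen cortex was made into libraries with a Nugen Ovation kit, per the labels' protocols. The authors deposited a table of raw read counts per RefSeq transcript row, and CASAVA 1.8.2, featureCounts and mm10 are named per the submitters' processing notes. Which aligner was run, whether strand was used and how shared reads were counted: not given in the sources used here. Among 34755 rows, 34424 (99.05%) matched a gene symbol, and rows were summed per symbol.

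Counts were filtered with filterByExpr (minimum count 10, minimum total 15), scaled by TMM and tested for SCFA against control over 11969 genes with edgeR 4.0.16 (quasi-likelihood, Benjamini-Hochberg) in R 4.3.3, with DESeq2 1.42.0 and limma 3.58.1 as alternatives; the code was tested on simulated data. Log2 CPM used a prior count of 2. The standard error (SE) of a log2 fold change was back-calculated, as its absolute value over the square root of the F statistic. With 3 libraries a group, counting error and mouse-to-mouse spread are not separated.

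The members and gene lists, and the promoter elements, were chosen with earlier results of these data known. Named genes were each class's 4 members of smallest p (3 soluble proteins), the member of lowest fold change and any past the threshold, the 2 pathway genes of smallest p in each direction, and the 2 most counted markers of each list; Naglu, Asah1, Gusb, Lamp2, Laptm4a and Cd68 were added after their values were seen. Some genes that this rule names are not reported here.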

Additional observations from a re-analysis of the deposited data

How the results depend on the processing

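With 3 libraries a group, and 1 member past the threshold, small changes of the fit moved the calls; the cause was not tested. Genes called higher numbered 1, but 30 with no filter on low counts, 13 with DESeq2, 0 with limma-voom, 10 with a replicate block and 14 with control 2 and SCFA 2 both left out, and 0 to 8 on leaving out 1 library. Genes called lower numbered 9, but 25 with no filter, 16 with DESeq2, 0 with limma-voom and 0 to 13 on leaving out 1 library. Members called higher numbered 1, but 0 with total-count scaling and with limma-voom, 3 with no filter and with DESeq2, 2 with the replicate block, 2 with both libraries left out and 0 to 2 on leaving out 1 library; 0 were called lower in any of these fits.

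Members with every SCFA library above every control numbered 15, but 25 with both libraries left out and 16 to 24 on leaving out 1, where fewer libraries make non-overlap easier (over all genes 6.42%, 17% with both out and 10.5% to 13.3% with 1 out); those with every SCFA library below numbered 0, but 1 and 0 to 1. Total-count scaling moved the median of all genes to 0.18, and those of all members, cathepsins and membrane proteins to 0.55, 0.80 and 0.54, which relative to all genes were 0.37, 0.62 and 0.36. The membrane median was 0.57 with limma-voom and 0.57 with the replicate block, and the hydrolase median was 0.23 with both libraries left out. On leaving out 1 library, the medians ran from 0.31 to 0.42 for all members, 0.35 to 0.69 for cathepsins, 0.29 to 0.46 for other hydrolases, 0.29 to 0.42 for membrane proteins and 0.22 to 0.71 for soluble non-enzymes.

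Log2 fold changes near 0 turned sign: with total-count scaling Ctsf was 0.10, Ctsk 0.15, Gaa 0.09, Lamp2 0.12, Mcoln1 0.0048 and Cd63 0.34; with limma-voom Ctsk 0.06, Gusb -0.0031 and Cd63 1.09; with the replicate block Ctsk 0.00031, Gaa 0.01, Gusb -0.08 and Cd63 0.61; with both libraries left out Gusb -0.48, Ppt1 -0.04, Smpd1 -0.02 and Cd63 1.05. On leaving out 1 library, Ctsf ran from -0.15 to 0.02, Ctsk from -0.23 to 0.41, Gaa from -0.27 to 0.24, Gusb from -0.59 to 0.38, Ppt1 from -0.01 to 0.15, Lamp2 from -0.09 to 0.01, Cd63 from -0.58 to 1.13 and Grn from -0.02 to 0.81. In all, 640 member values kept direction and side of the threshold and 29 turned sign. Deviations of same-numbered libraries correlated at -0.00206, 0.0101 and -0.00525 over 11969 genes. These values cannot decide whether replicate numbers pair the mice, because control 2 and SCFA 2 stood apart on different principal components.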
